A study of Mus musculus with 16 samples.

Results

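Chromatin accessibility was compared here between pancreatic cancer cells that had grown as liver metastases and cells that had grown as primary pancreas tumors, both with Smad4 suppressed. The members are the 2 liver libraries (Liv_OFF) and the 3 pancreas libraries (Panc_OFF) that the labels mark as Smad4 off, 5 of the 16 libraries of the series, and each comes from a separate mouse. They were read over 136630 nuclear peaks, intervals of open DNA found by ATAC-seq, in which the Tn5 transposase cuts and tags DNA that is not wrapped tightly around nucleosomes. The question was which regions are open to a different degree in one tumor type at 2 organ sites while Smad4 stays suppressed. The study also sampled lung metastases and, at every site, tumors after doxycycline withdrawal, which returns Smad4, for 14 days or, by the column names of the lung libraries, 15 days.

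All cells came from KC-shSmad4 mouse tumors of pancreatic ductal adenocarcinoma, with Ptf1a-Cre, a Rosa26 allele carrying rtTA3 and the red protein mKate2 (RIK), and a Col1a1 cassette with a doxycycline-dependent hairpin against Smad4. Ptf1a-Cre directs recombination to the pancreas lineage. Lines from such tumors, which had been given luciferase, were transplanted into 6- to 8-week-old female Foxn1nu mice, which lack T cells and keep other host cell types, and doxycycline in the chow kept the hairpin on in all 5 mice. Pancreas tumors were started with 100000 cells in the pancreas and liver metastases with 400000 cells in the spleen, which was then removed. Withdrawal in the restored arms began at week 4 in pancreas hosts and at week 5 in liver hosts. Organ, route, cell number and growth time therefore cannot be told apart, and which line each library came from is not given in the sources used here. Each library was made from 60000 cells sorted for mKate2. Because the hairpin acts on the transcript, accessibility gives no check of the Smad4 label.

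Open chromatin marks promoters and enhancers, where transcription factors bind. Epithelial cells hold their junction, keratin and surface genes open under factors such as GRHL2, ELF3, KLF5 and the HNF family, while mesenchymal cells, which have left that state by epithelial-mesenchymal transition (EMT), open collagen, fibronectin and vimentin loci under factors such as TWIST, ZEB and PRRX1, often together with AP-1 and RUNX proteins. Pancreatic cancer cells can occupy either state.

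The sequences of 4 peaks open the results, since the 2 directions of the comparison differed in the short motifs their peaks hold. Each is the central 300 bases of a called peak, the one of smallest p that holds the motif among peaks within 100 kb of a protein-coding start site, with no peak shown more than once. Each is read 5′ to 3′ on the forward strand of mm10. Capitals mark matches, on either strand, to the motif named for the window only, and other motifs are not marked. HNF4 and HNF1, factors of endoderm, liver and gut, are shown for the side more open in the liver metastases. Their letters are rare there, in 2.23% and 2.32% of the peaks called higher in liver, whereas AP-1 letters stood in 21.6% of those peaks. AP-1, the FOS and JUN dimer, and RUNX are shown for the side more open in the pancreas tumors. Their letters stood in 47.4% and 14.7% of the peaks called lower in liver. The windows are not free of other motifs. The Muc3a window also holds the RUNX letters TGTGGTT, and the Dhrs3 window the KLF letters CCACACCC.

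The HNF4 window lies at chr5:137193803-137194102, 18436 bp from the start site of the mucin gene Muc3a.
Muc3a HNF4 window: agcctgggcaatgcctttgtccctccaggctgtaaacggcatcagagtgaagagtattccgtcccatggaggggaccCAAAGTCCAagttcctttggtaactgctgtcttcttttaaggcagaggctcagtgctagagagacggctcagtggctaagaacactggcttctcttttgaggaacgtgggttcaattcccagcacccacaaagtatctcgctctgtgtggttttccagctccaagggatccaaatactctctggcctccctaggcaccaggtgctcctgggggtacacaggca
The HNF1 window lies at chr4:144961443-144961742, 68516 bp from the start site of Dhrs3, which encodes a retinal reductase.
Dhrs3 HNF1 window: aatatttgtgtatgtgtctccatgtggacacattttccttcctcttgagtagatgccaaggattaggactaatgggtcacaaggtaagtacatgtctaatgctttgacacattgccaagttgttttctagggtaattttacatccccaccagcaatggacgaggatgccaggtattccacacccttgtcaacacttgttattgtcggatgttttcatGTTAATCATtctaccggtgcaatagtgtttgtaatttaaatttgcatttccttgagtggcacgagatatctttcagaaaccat
The AP-1 window lies at chr7:99322796-99323095 in an intron, 30168 bp from the start site of Serpinh1, which encodes the collagen chaperone HSP47.
Serpinh1 AP-1 window: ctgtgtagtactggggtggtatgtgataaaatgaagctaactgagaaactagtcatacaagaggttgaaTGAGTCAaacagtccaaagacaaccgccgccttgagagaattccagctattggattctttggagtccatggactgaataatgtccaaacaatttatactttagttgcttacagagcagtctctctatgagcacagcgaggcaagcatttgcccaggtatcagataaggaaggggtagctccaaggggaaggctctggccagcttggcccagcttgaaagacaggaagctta
The RUNX window lies at chr2:73608395-73608694, 17124 bp from the start site of Chn1, which encodes a Rac-directed GTPase-activating protein.
Chn1 RUNX window: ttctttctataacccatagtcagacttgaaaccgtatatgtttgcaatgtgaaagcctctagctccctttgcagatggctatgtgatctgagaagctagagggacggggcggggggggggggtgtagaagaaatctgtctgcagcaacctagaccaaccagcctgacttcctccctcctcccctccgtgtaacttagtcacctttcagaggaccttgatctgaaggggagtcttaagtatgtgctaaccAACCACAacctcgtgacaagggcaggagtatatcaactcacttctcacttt

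At the Muc3a peak the liver metastases had normalized counts of 269 and 312 and the pancreas tumors 17.1, 8.93 and 7.41. At the Dhrs3 peak they had 1207 and 1159 against 256, 283 and 263. Both liver libraries were thus above all 3 pancreas libraries, by 4.66 ± 0.441 and 2.14 ± 0.212 on the log2 scale (difference ± SE). The order was the opposite at the Serpinh1 peak, with 56.8 and 65.5 in liver against 368, 455 and 433 in pancreas, and at the Chn1 peak, with 248 and 223 against 1378, 1294 and 1221. These 2 differences were -2.75 ± 0.193 and -2.46 ± 0.170.

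A normalized count is the number of reads in a peak divided by a size factor of its library, and every log2 difference is liver minus pancreas on the log2(normalized count + 1) scale, which understates the change of weak peaks. A peak was called when it differed by at least 0.58 on that scale, with an adjusted p of at most 0.1 by limma with Benjamini-Hochberg adjustment. The 5 libraries held 26848855 to 34879452 reads in peaks, with a median of 36 to 40 reads a peak in liver and 62 to 64 in pancreas. Pairs of libraries of the same organ correlated at 0.961 to 0.968 over log2 values, and pairs of different organs at 0.720 to 0.784.

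More peaks differed between the organs than did not. Of the 136630 peaks, 79962 were called (58.5%), 35843 higher in liver (26.2%) and 44119 lower (32.3%), around a median of -0.05 over all peaks. Replicates did not overlap between the organs at 77.1% of peaks. The median called difference was 2.95-fold among peaks higher in liver and 3.76-fold among peaks lower. A difference of at least 2 on the log2 scale, or 4-fold, was reached by 12124 peaks higher in liver and 20449 lower.

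The direction depended on where a peak lay. Within 1 kb of a protein-coding start site, 22.7% of peaks were higher in liver and 8.7% lower, whereas over 100 kb from one 18.4% were higher and 45.4% lower. Peaks at a promoter, here within 1000 bp of any annotated start site, numbered 20000 and had a median difference of 0.35. The 57027 intronic peaks had -0.22 and the 50129 intergenic peaks -0.29. Promoter peaks are also richer in G and C, with a median of 53.1% against 44.6% between genes, and the 34156 peaks of highest GC content had 27.6% higher and 21.6% lower. With a GC correction 78770 peaks were called, of which 49.4% were higher in liver, against 44.8% without it.

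**Figure D1:**
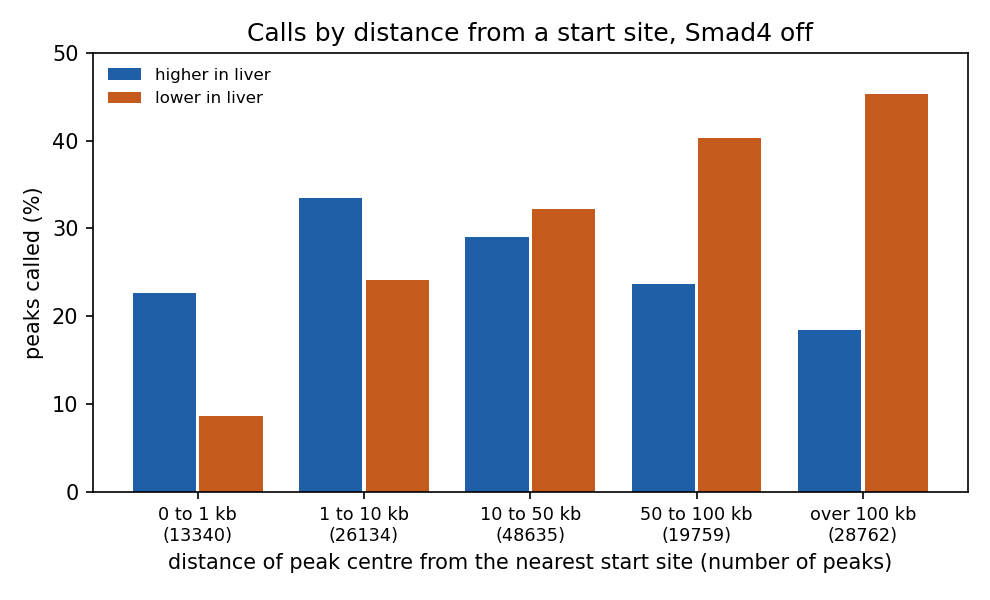
Share of peaks called (vertical axis, %) against the distance of the peak center from the nearest protein-coding start site (horizontal axis, number of peaks in parentheses), with blue bars for peaks higher in liver metastases and orange bars for peaks lower. The lower calls climb from 8.7% within 1 kb to 45.4% over 100 kb, while the higher calls are most frequent between 1 and 10 kb, at 33.5%.

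Epithelial identity genes were more open in the liver metastases. Of 129 peaks assigned to 17 genes of cell junctions, keratins and epithelial regulators, by the nearest start site within 100 kb, 107 were called higher and 5 lower, with a median of 1.62 against -0.05 over all peaks. Among the 20 promoter peaks of the list 19 were called higher and none (0) lower. The peak at the start site of Grhl2, a regulator of epithelial junction genes, had 391 and 963 in liver and 25.6, 32.2 and 29.6 in pancreas. Even the lower liver library was more than 10 times any pancreas library there. The difference was 4.36 ± 0.383 (adjusted p = 4.09e-06), and 21 of the 27 Grhl2 peaks were called higher. Epcam, which encodes an epithelial adhesion protein, had 2244 and 2534 against 529, 698 and 508 at its start site, with 20 of 24 peaks higher. Esrp1, an epithelial splicing regulator, had 1871 and 2367 against 331, 284 and 180, with all 6 peaks higher. Rab25, an epithelial trafficking GTPase, had 176 and 347 against 13.7, 17.0 and 6.48. At the peaks given for these 4 genes the organs did not overlap, as at 77.1% of all peaks. Cdh1, the E-cadherin gene, had 7 of 10 peaks higher, although its nearest peak, 3843 bp from the start site, was weak, at 66.6 and 34.8 against 20.5, 18.8 and 21.3. That peak was called (adjusted p = 0.016), and not without Liv_OFF replicate 1.

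Genes of stratified and basal epithelium belonged to the same side. Their list had 53 of 106 peaks higher and 14 lower, with a median of 0.88. Krt5, a basal keratin, had 552 and 1115 in liver against 40.1, 28.6 and 30.6 in pancreas, a difference of 4.54 ± 0.438 (adjusted p = 5.68e-06), and all 7 of its peaks were higher. Trp63, the basal regulator p63, had 13 peaks higher and 8 lower, and its start-site peak gave 18.5 and 34.8 against 0.854, 0.893 and 0, a weak signal in liver that was close to nothing in pancreas. Among the 10 called promoter peaks of largest difference, Zfp750, a factor of epidermal differentiation, had 114 and 219 against 4.27, 7.15 and 2.78, and Defb1, an epithelial defensin, had 173 and 378 against 5.12, 5.36 and 5.56. The second liver library was the higher of the pair at each of these genes and at Grhl2 and Rab25. The organs did not overlap at any of them, as at 77.1% of all peaks. For Zfp750 and Defb1 the lack of overlap was a condition of their choice.

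Mucin, trefoil and gastric genes had 46 of 94 peaks higher and 8 lower, with a median of 0.73. Muc4, a membrane mucin often raised in pancreatic cancer, had 421 and 326 against 69.2, 110 and 72.2 at its start site, and 9 of 12 peaks higher. Tff2 and Tff3, secreted trefoil peptides of mucous epithelia, had all 4 and all 5 of their peaks higher. Tff1 had none (0) of its 5 peaks called, with 118 and 116 against 105, 139 and 131, so the organs overlapped there.

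**Figure D2:**
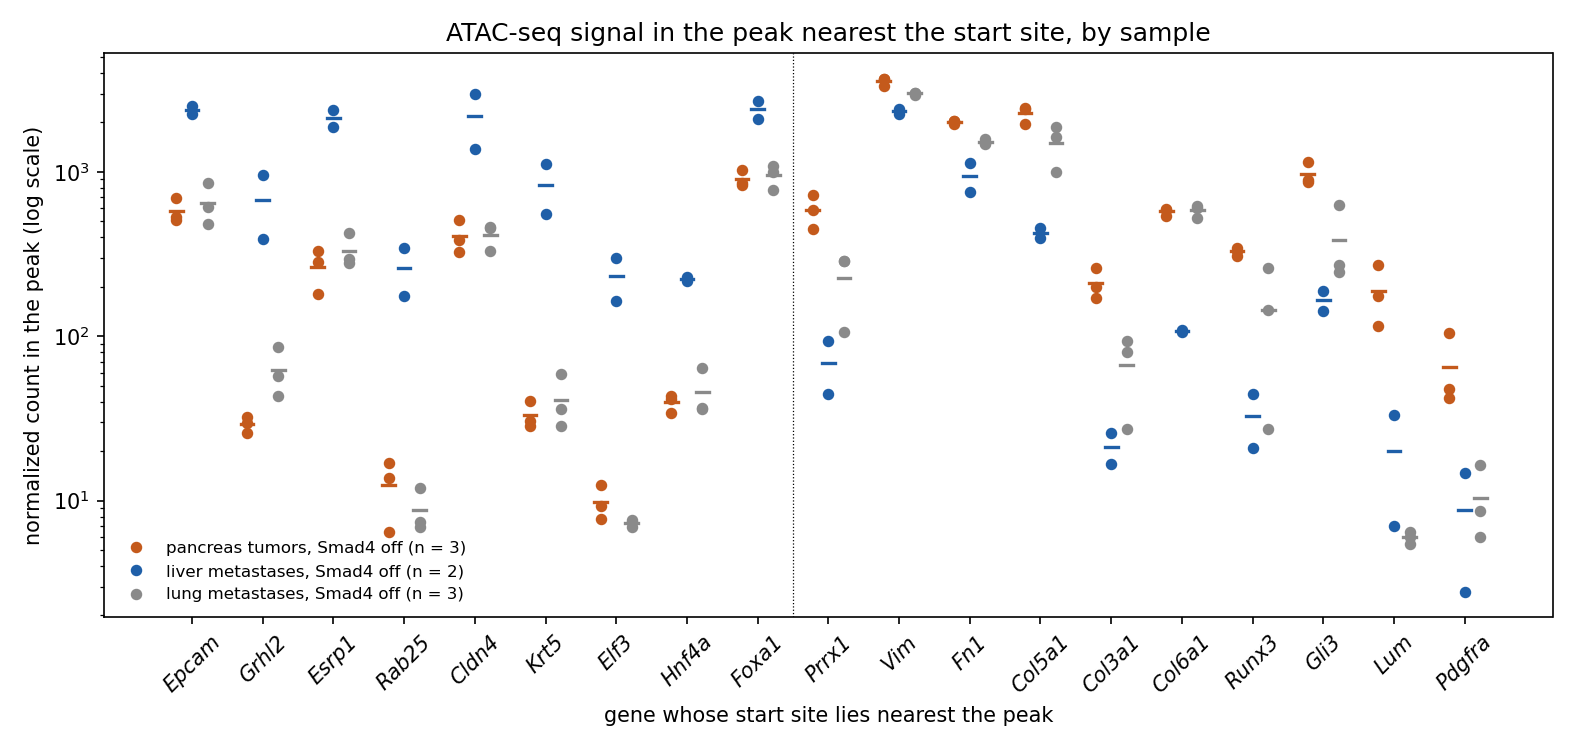
Normalized count (vertical axis, log scale) in the peak nearest the start site of 19 genes (horizontal axis), with one point a mouse and a bar at the group mean, for pancreas tumors (orange, n = 3), liver metastases (blue, n = 2) and lung metastases (gray, n = 3), all with Smad4 off. Left of the dotted line the liver points lie above the pancreas points, as at Grhl2 (391 and 963 against 25.6 to 32.2), and right of it below, as at Col6a1 (109 and 106 against 541 to 597).

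Transcription factors of endoderm and liver showed the same direction in 107 of 247 peaks, with 35 lower and a median of 0.50. Hnf4g, a paralog of the liver and gut receptor HNF4A, had 18 of 21 peaks higher, and its start-site peak gave 969 and 897 against 430, 355 and 313. Hnf4a itself had 216 and 230 against 43.6, 33.9 and 41.7, a difference of 2.47 ± 0.349 (adjusted p = 5.21e-05). Foxa1, a pioneer factor of endoderm, had 2106 and 2721 against 857, 1026 and 830. Gata6, a factor of the classical epithelial subtype of pancreatic cancer, went neither way, with 6 peaks higher and 9 lower of 27, and 2167 and 1978 against 1898, 1925 and 1672 at its start site (adjusted p = 0.227). Sox9, a ductal factor, had 3063 and 2838 against 3176, 3141 and 3150 (adjusted p = 0.42).

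Of the KLF family, zinc finger factors of epithelial growth and differentiation, 76 of 190 peaks were higher and 42 lower, with a median of 0.38. Klf5, which sustains gut and pancreatic epithelium, had 15 of 23 peaks higher and none (0) lower, yet its start-site peak differed by 0.53 ± 0.096, under the threshold, so its calls lay away from the start. Klf3 had 14 of 26 higher and 3 lower. Klf2, an exception, had 1 higher and 4 lower of 9. Among ETS factors 58 of 218 peaks were higher (26.6%) and 76 lower (34.9%), near the 26.2% and 32.3% of all peaks. Single members differed. Elf3, an epithelial ETS factor, had 9 of 10 peaks higher and 164 and 301 against 7.69, 12.5 and 9.26 at the peak nearest its start, while Ets1, which is common in mesenchymal, endothelial and lymphoid cells, had 21 of 31 lower and 1 higher.

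The genes with the largest net number of calls gave the same picture without a list. On the liver side stood Shroom3, a regulator of epithelial cell shape, with 42 of 49 peaks higher and 1 lower, Tiam1, a Rac activator at epithelial junctions, with 30 of 31, and Tmprss2, an epithelial serine protease, with 28 of 32. Map7, a microtubule-binding protein of epithelia, had 27 of 30 higher, and Barx2, a homeobox factor, 23 of 29. Among the 10 peaks of smallest p, one near Osbpl5, a lipid transfer protein, had 330 and 539 against 10.2, 10.7 and 14.8, and one near Plin2, which coats lipid droplets, had 247 and 322 against 13.7, 14.3 and 11.1. Krt23, an epithelial keratin, had 2536 and 2724 against 501, 627 and 452.

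Collagen and matrix genes moved the other way. Of the 241 peaks of 17 such genes, 194 were lower in liver and 8 higher, with a median of -2.19, and 18 of 21 promoter peaks were lower. Col5a1, a fibrillar collagen chain, had 457 and 396 in liver against 1970, 2435 and 2412 in pancreas at its start site, a difference of -2.41 ± 0.28 (adjusted p = 1.42e-05), and 24 of 26 peaks lower. Col6a1, a chain of microfibrillar collagen VI, had 109 and 106 against 541, 597 and 591, with 13 of 14 peaks lower. Col3a1 had 25.9 and 16.7 against 172, 200 and 260, and all 15 peaks lower. Tnc, the glycoprotein tenascin C, had 22 of 29 peaks lower. At each of these start sites the libraries of the 2 organs did not overlap, as at 77.1% of all peaks. Col4a1, a basement membrane collagen, was different at its start site, with 1155 and 680 against 1187, 948 and 899, although 13 of its 21 peaks were lower.

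EMT factors and mesenchymal genes had 119 of 161 peaks lower and 8 higher, with a median of -1.66. Prrx1, a mesenchymal homeobox factor, had 17 of 18 peaks lower and 93.8 and 44.6 against 447, 590 and 722 at its start site, a difference of -3.13 ± 0.544 (adjusted p = 0.000226). Twist1 had 717 and 669 against 1385, 1385 and 1418. Vim, the vimentin gene, had 2423 and 2254 against 3679, 3351 and 3697, a smaller difference of -0.61 ± 0.0954, and 8 of its 9 peaks were lower. Cdh2, the N-cadherin gene, had 19 of 26 peaks lower and none (0) higher. Zeb1 showed a contrast between its start site, at 1008 and 882 against 864, 950 and 931 (adjusted p = 0.785), and the peaks around it, of which 13 of 17 were lower. Fn1, the fibronectin gene, lay with Mreg in a run of 31 neighboring peaks that were all called lower, and Hdac9, next to Twist1, in a run of 32. The longest run, around Prickle1, Adamts20 and Pus7l on chromosome 15, held 40 peaks over 828 kb, all 40 of which were also called lower in the restored tumors. These runs were picked for their length.

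Genes of the widest loss included Frmd4a, a cell polarity scaffold, with 35 of 49 peaks lower and none (0) higher, Tcf4, a partner of EMT factors, with 38 of 52, Dlc1, a GTPase-activating protein, with 29 of 34, and Nrg1, a ligand of ERBB receptors, with 27 of 34. Among the peaks of smallest p, 2 belonged to Fbln2, a matrix protein, and the one 5604 bp from its start had 326 and 245 against 1502, 1722 and 1728. Promoter peaks of Il1rl1, the interleukin 33 receptor, and Bdkrb1, a bradykinin receptor, were nearly closed in liver, at 7.41 and 4.18 against 92.2, 86.7 and 197, and at 13.6 and 8.36 against 147, 150 and 378.

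RUNX genes had 69 of 112 peaks lower and 6 higher, with a median of -1.11. Runx3 was lower at its start site, with 44.4 and 20.9 against 332, 310 and 345, and had 17 of 25 peaks lower. In metastases of this model the study's RUNX3 antibody staining lay in stromal cells, without a signal specific to the tumor. Whether host nuclei contributed to the Runx3 values was not tested. Runx1 had 32 of 54 peaks lower and 3 higher, yet its start-site peak was slightly larger in liver, at 3358 and 3249 against 2709, 2483 and 2595, a difference of 0.35 ± 0.0979 that is under the threshold. Hedgehog pathway genes had 31 of 126 peaks higher and 59 lower, and differed among themselves. The ligand genes Shh, with 14 peaks higher and 2 lower of 20, and Ihh, with 5 of 6 higher, were more open in liver, and at the Shh start site the counts were 373 and 561 against 145, 127 and 77.8. Gli3, a transcriptional effector, had 18 of 19 peaks lower and Hhip, a target that binds the ligands, 11 of 13. The effector Gli2 had 5 higher and 11 lower of 26, the receptor gene Ptch1 2 and 6 of 16, and the coreceptor gene Gas1 1 and 5 of 10, while the other 5 genes had 2 to 5 peaks each. These genes were chosen after their values were seen. The Gli3 start site had 189 and 142 against 887, 868 and 1144, and that of Hhip lost its call without Liv_OFF replicate 1, without replicate 2, or without Panc_OFF replicate 1.

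Of the genes the study named as Smad4 effectors, 57 of 87 peaks were lower in liver and 15 higher, in these mice without Smad4 restoration. The study chose that list on its own tumors, so its direction is not independent. Ccn4, a matricellular protein, had 139 and 59.9 against 512, 741 and 819 at its start site, and Ccbe1, a matrix protein of lymphatic growth, had 13 of 17 peaks lower. Id1, an inhibitor of helix-loop-helix factors, had 8775 and 10070 against 4613, 4896 and 4335, with 5 of 6 peaks higher. Cdkn1c, which encodes the cell cycle inhibitor p57, had 7 of 10 peaks higher and 469 and 575 against 307, 350 and 344 at its start, a difference of 0.64 ± 0.153 that lost its call without Liv_OFF replicate 2 and under 6 other settings, among them TMM factors (0.55) and a GC correction (0.51). The wider list of TGF-beta ligands, receptors and Smads had 113 peaks higher and 155 lower of 433, close to the background.

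**Figure D3:**
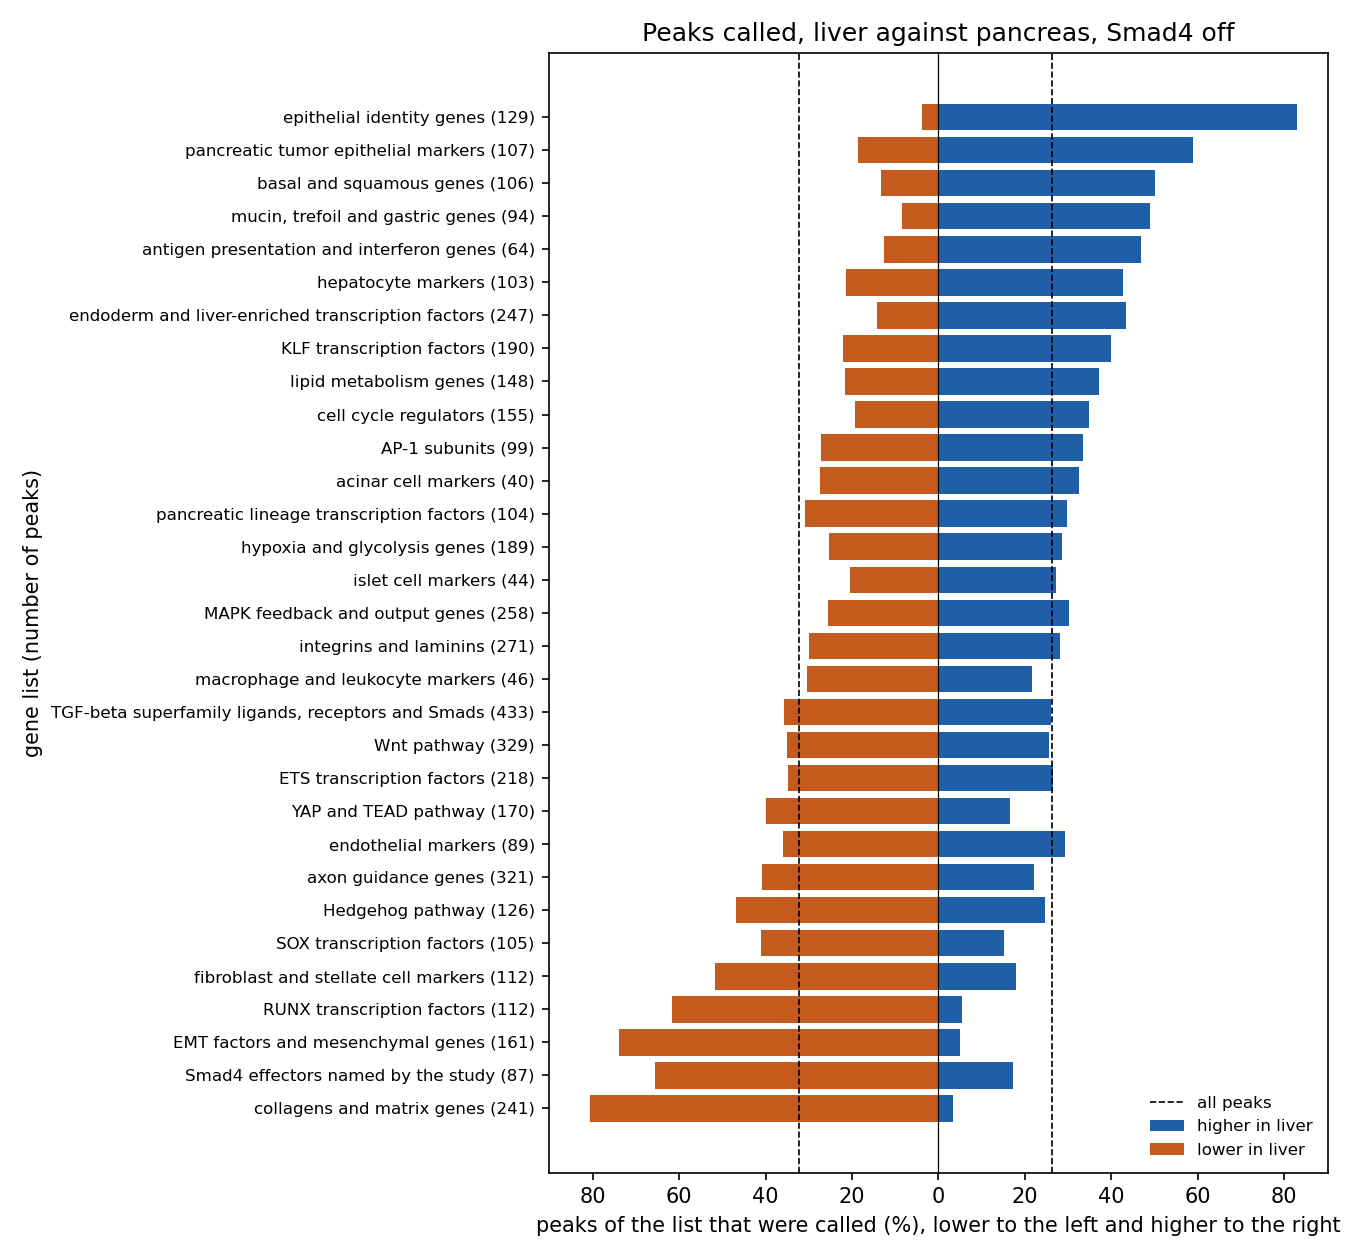
Share of each gene list's peaks called (horizontal axis, %), with lower calls in orange to the left and higher calls in blue to the right, for 31 lists (vertical axis, number of peaks in parentheses) ordered by median difference, and dashed lines at the shares of all peaks, 32.3% and 26.2%. Epithelial identity genes stand at one end (107 of 129 higher) and collagens and matrix genes at the other (194 of 241 lower).

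The other lists lay between these. Antigen presentation and interferon genes had 30 of 64 peaks higher and 8 lower, with the class I genes H2-K1 at 3155 and 3231 against 1543, 1418 and 1433 and H2-D1 at 2861 and 2922 against 1552, 1588 and 1569. Lipid metabolism genes had 55 of 148 higher and 32 lower, among them Ppara, a nuclear receptor of fatty acid oxidation, with 939 and 1521 against 472, 421 and 376. Cell cycle regulators had 54 of 155 higher and 30 lower. Genes of the YAP and TEAD pathway had 28 of 170 higher and 68 lower, SOX factors 16 and 43 of 105, and axon guidance genes 71 and 131 of 321. For AP-1 subunits (33 and 27 of 99), MAPK output genes (78 and 66 of 258), hypoxia genes (54 and 48 of 189), integrins and laminins (76 and 81 of 271), Wnt genes (84 and 115 of 329) and pancreatic lineage factors (31 and 32 of 104), the shares lay closer to those of all peaks.

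Markers of other cell types were examined because host nuclei could enter a sort. Fibroblast and stellate markers had 58 of 112 peaks lower in liver and 20 higher, with 15815 and 15804 counts summed over the list in liver and 15653 to 18056 in pancreas. Of the 11 listed genes with a peak, 3 on the lower side are given here, and they do not stand for the 20 higher peaks. Lum had 33.3 and 6.97 against 115, 176 and 272. Dcn had 23.4 and 11.1 against 89.7, 94.7 and 166, and Pdgfra 14.8 and 2.79 against 47.8, 42.0 and 105. No marker peak of these 3 was at 0, and they moved with the collagen and EMT results; their part in those results was not tested. Another measurement comes from Cdkn2a and Cdkn2b, a locus that host cells carry and that the study describes as deleted on both alleles in most of its tumor lines. The start sites of both genes and of the neighboring Mtap, a gene of methionine salvage that most cells use, fell in a stretch of 286 kb (chr4:89106911-89393324) with 1 peak, which held 0 and 0 reads in liver and 4, 0 and 0 in pancreas. Endothelial markers had 26 of 89 peaks higher (29.2%) and 32 lower (36.0%), with list sums of 9108 and 10706 against 9401 to 9590. Macrophage and leukocyte markers had 10 (21.7%) and 14 (30.4%) of 46, with 5309 and 5664 against 4895 to 5171. The shares of both lists lay near the 26.2% and 32.3% of all peaks. In bulk samples a smaller share of cells and a weaker signal in each cell cannot be told apart.

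Hepatocyte markers had 44 of 103 peaks higher in liver and 22 lower, with list sums of 13887 and 13622 against 9602 to 10036. Apob, an apolipoprotein, had 942 and 844 against 241, 310 and 285, and Pck1, an enzyme of glucose synthesis, had 75.3 and 85.0 against 6.83, 3.57 and 2.78. Albumin did not follow. The peak nearest to Alb was centered 6557 bp from its start site and had 13.6 and 20.9 against 27.3, 14.3 and 11.1 (adjusted p = 0.947), and 8 of the 25 marker genes had no peak assigned. The promoter of Hp, haptoglobin, had 18.5 and 22.3 against 46.1, 42.9 and 34.3. Acinar markers had 13 higher (32.5%) and 11 lower (27.5%) of 40, with list sums of 6070 and 5608 against 4572 to 4686. Islet markers had 12 (27.3%) and 9 (20.5%) of 44, with 10583 and 10951 against 6040 to 6861. Over all peaks 26.2% were higher and 32.3% lower. Markers of the tumor epithelium itself had 63 of 107 peaks higher in liver and 20 lower, with a median of 0.99 and sums of 106186 and 106862 in liver and 49858 to 54870 in pancreas.

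Some of the motifs differed in frequency between the 2 directions, and others differed little. Each of 20 consensus sequences was searched on both strands in the central 300 bases of every peak, and a match is a description of letters, not of binding. Of the 1421 peaks with the HNF4 letters CAAAGTCCA, which 1.04% of all peaks held, 56.4% were higher in liver and 14.1% lower, with a median of 1.02. The HNF1 letters GTTAATNAT stood in 1.41% of peaks, of which 43.1% were higher and 21.0% lower. The KLF letters CCACACCC stood in 3.63%, of which 43.7% were higher and 19.5% lower, and the palindrome AACCGGTT of GRHL factors in 0.123%, of which 41.7% were higher.

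The AP-1 letters TGANTCA, the most frequent, stood in 34.1% of peaks, of which 16.7% were higher in liver and 44.9% lower, with a median of -0.73. The RUNX letters TGTGGTT stood in 10.9%, with 19.0% higher and 43.4% lower. Peaks that held both had 52.3% lower and 11.2% higher, and their median of -1.03 lay beyond the -0.69 of AP-1 without RUNX and the -0.36 of RUNX without AP-1. Where HNF4 and AP-1 letters shared a window, the shares fell between those of either, at 40.8% higher and 21.6% lower over 385 peaks. The SMAD palindrome GTCTAGAC stood in 446 peaks, with a median of -0.41, which was 0.01 when the whole peak was searched. The FOXA letters TGTTTAC, the GATA letters AGATAAG and the letters CAGGAAG of the ETS factors EHF and ELF3 had medians of 0.13, 0.13 and 0.04. Peaks with HNF4, HNF1 and AP-1 letters kept their directions outside promoters, with medians of 1.03, 0.50 and -0.77. No consensus is independent of the others, since windows share motifs and base composition.

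**Figure D4:**
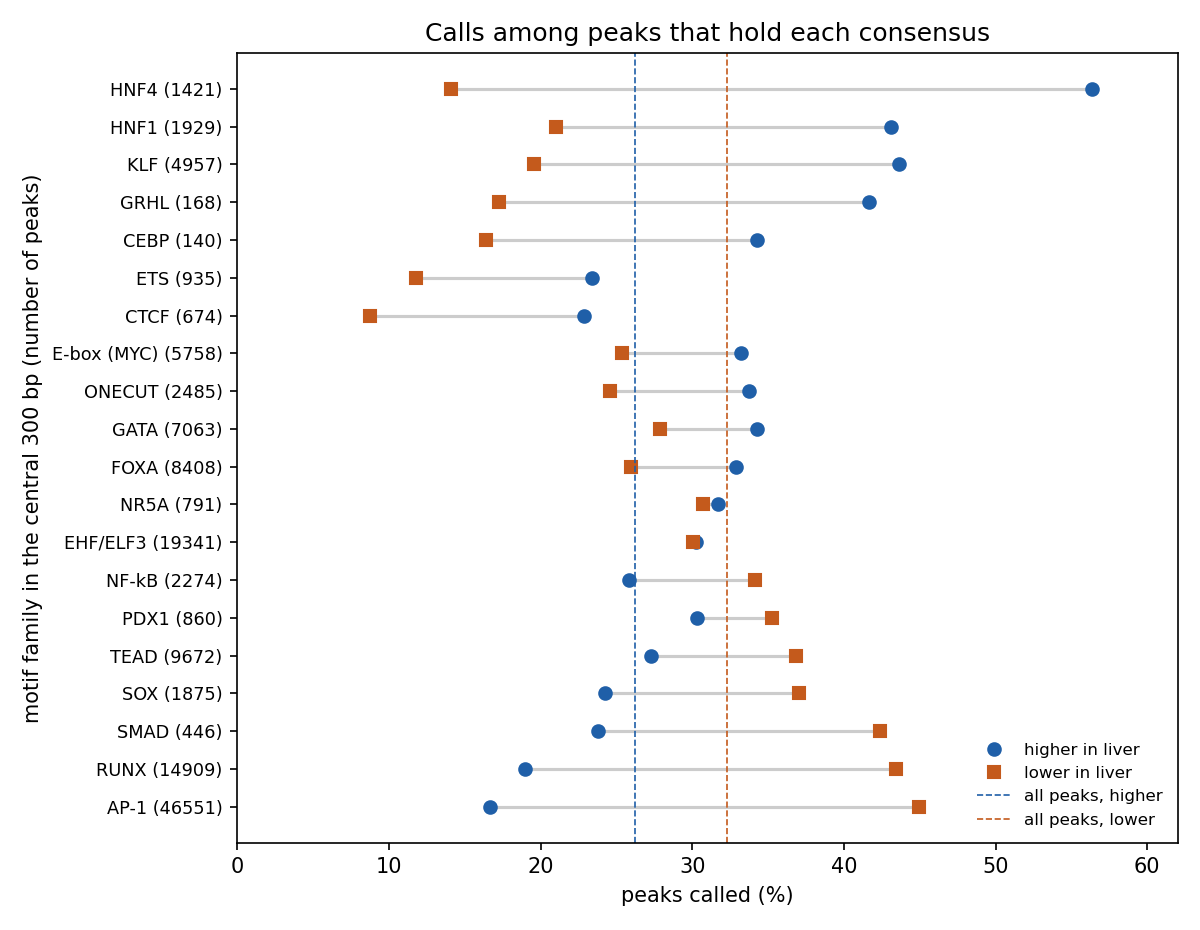
Share of peaks called (horizontal axis, %) among peaks that hold each of 20 motif families in their central 300 bp (vertical axis, number of peaks in parentheses), with blue circles for higher in liver, orange squares for lower and dashed lines for all peaks. HNF4 peaks have the highest share higher in liver (56.4%) and AP-1 peaks the highest share lower (44.9%).

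The same organ difference was measured in 5 other mice, with Smad4 restored for 14 days (2 liver, Liv_ON, and 3 pancreas, Panc_ON). There, 81100 peaks were called (59.4%), 37078 higher in liver (27.1%) and 44022 lower (32.2%), and 53580 without Liv_ON replicate 2. Of the peaks higher in liver with Smad4 off, 86.6% were called higher again, and 83.7% of the calls with Smad4 restored had been called before. For peaks lower in liver these shares were 83.9% and 84.1%. Both sets of calls come from one fit over all 16 libraries, which pools their spread. When the restored groups were fitted alone, 81.9% of the higher and 80.5% of the lower peaks were called again. The calls with Smad4 off were still those of the fit over all libraries. The sign was kept at 99.0% and 98.7% of the called peaks, and 25 peaks were called in opposite directions. Across all 136630 peaks the 2 sets of differences correlated at 0.921, a description over peaks that share libraries. At the Grhl2 start site the restored livers had 644 and 722 and the restored pancreas tumors 33.8, 47.0 and 39.9.

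Whether the organ difference itself changed with Smad4 was tested as an interaction. None (0) of the 136630 peaks passed in limma (0%), 5403 had an unadjusted p under 0.05 (3.95%), edgeR called 0, and DESeq2 called 25. The smallest adjusted p in limma was 1.00. Sizes at the pancreas-side peaks of smallest p were smaller in the restored mice, with -1.27 at Chn1 and -1.78 at Serpinh1 against -2.46 and -2.75, but those peaks were chosen on the first values.

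**Figure D5:**
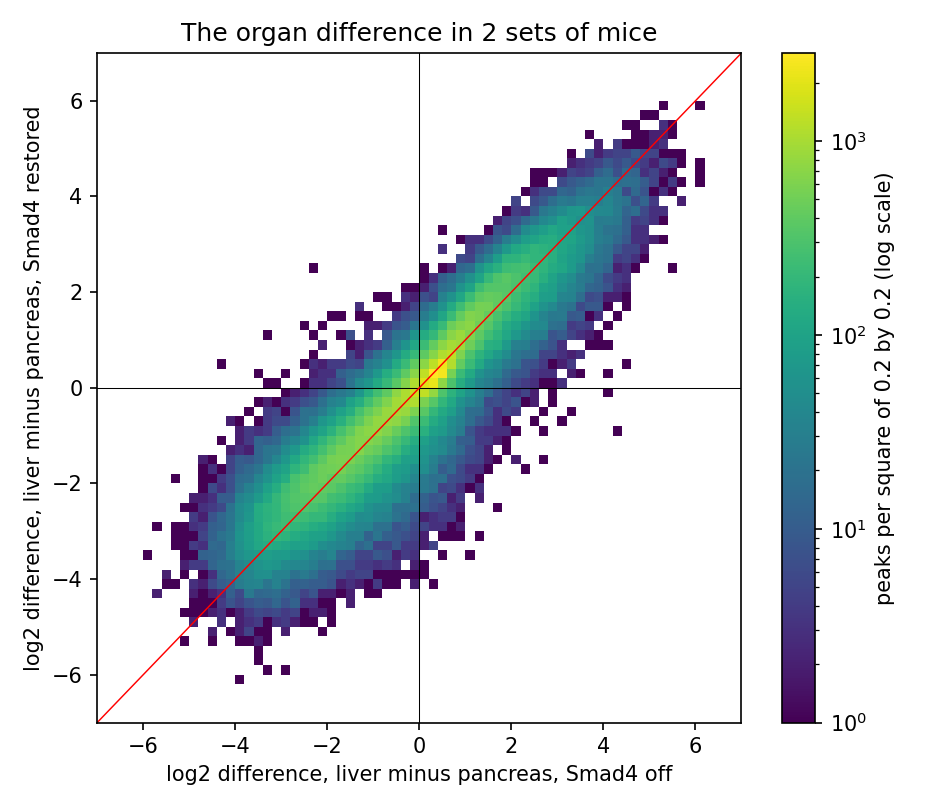
Log2 difference between liver and pancreas of each peak with Smad4 off (horizontal axis) against that with Smad4 restored (vertical axis), colored by the number of peaks per square (log scale), with the red line at equality. The 2 sets of mice give differences that correlate at 0.921 over the 136630 peaks.

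The lung metastases with Smad4 off, set beside these values without a test, did not hold one fixed place between the other organs. Their mean at Grhl2 was 62.1 (n = 3), at Epcam 648 and at Krt5 41.0, each closer to the pancreas tumors than to the liver metastases. At Col6a1 it was 584, also near the pancreas tumors. At Prrx1 it was 227, between the liver and the pancreas libraries, and which was nearer depends on the scale. At Lum it was 5.97, below every liver and pancreas library.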

How the data were processed

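ATAC-seq reads were trimmed with Trim Galore, aligned to mm10 with Bowtie2, turned into peaks with MACS2 and counted with featureCounts, per the submitters' processing notes. The authors deposited one table of counts per peak divided by library size factors, a signal that was divided back to whole reads, which all values gave within 0.01. The 136630 nuclear peaks were kept; the mitochondrial row was left out. limma (version 3.58.1, with an intensity trend and robust variances) was fitted to log2(normalized count + 1) over all 16 libraries in 6 groups, and p-values were adjusted over all peaks. edgeR 4.0.16 and DESeq2 1.42.0 on the recovered reads, other scalings, filters, a GC correction and leaving out each library were alternatives. The script was tested on simulated data. Genes are those with the nearest protein-coding start site of GENCODE vM21 within 100 kb; "promoter" peaks can belong to another transcript.

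The members, gene lists and motifs were chosen with earlier results of these data known. Named were, in each direction, the 10 called peaks of smallest p and the 10 called promoter peaks of largest difference. Both choices required no overlap, and the promoter peaks a mean of at least 50. In each direction the 10 genes with most net calls and up to 2 genes a list were also named. Further list genes were named after their values were seen. Some alleles and genes are not reported here, and peaks on chromosome 18 were not considered for the sequences shown. Replicate numbers were not taken to pair mice. Over deviations from the organ means, liver and pancreas libraries of the same number correlated at -0.109 and -0.016 with Smad4 off. With Smad4 restored they correlated at 0.166 and 0.002. The deviations of 2 liver libraries mirror each other, so these values cannot decide whether the numbers pair mice. Within Liv_OFF and within Panc_OFF, no 2 libraries were copies (chi-square per degree of freedom 4.65 to 5.41). Other pairs were not checked in this way.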

Additional observations from a re-analysis of the deposited data

Results flagged for a closer look

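Reads on the mitochondrial genome, which no comparison used, made up 3.06% and 3.56% of the counted reads in the 2 Liv_OFF libraries, above the 2.19% to 2.60% of the 3 Panc_OFF libraries. The restored tumors had 2.55% and 2.58% in liver and 1.80% to 2.17% in pancreas. No test was made of these shares, and their part in the peak results was not tested.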

How the results depend on the processing

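Between Liv_OFF and Panc_OFF, the 79962 calls ranged from 62216 at thresholds of 1 and 0.05 to 84736 with only the compared groups in the fit, and from 67359 to 75921 when 1 library was left out. A replicate block gave 79069 calls, 77863 with a GC correction. The numbers were not taken to pair mice, and no call count moved by over 1.5 times under the block. The share of calls higher in liver was 44.8%, and 41.2% with TMM factors to 49.6% with the block and GC correction. Between Liv_ON and Panc_ON the calls fell from 81100 to 53580 without Liv_ON replicate 2, and leaving out any other library gave up to 77766. For the interaction, DESeq2 called 25 peaks and leaving out 1 library gave 0 to 1, the 1 being without Liv_OFF replicate 2; the cause was not tested. The lists of epithelial identity, collagen, EMT, RUNX, KLF, mucin and basal genes kept the direction of their balance under all 18 alternatives, whereas that of pancreatic lineage factors turned or was even in 14 and that of integrins and laminins in 5. With a start site within 20 kb, 69 epithelial identity peaks were higher and 68 collagen peaks lower, since fewer peaks were assigned. The median of RUNX peaks was -0.18, and of AP-1 peaks -0.44, when the whole peak was searched. Among named peaks 1403 values kept their call and 82 lost it, at 17 start-site peaks, with no change of sign. Depth limits weak peaks, with a median of 36 to 40 reads a peak in liver. P-values rest on the spread between mice pooled over all 6 groups.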

Other observations

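Of 7778 genes with at least 5 peaks, 116 had every peak called higher in liver and 105 every peak called lower, while 4745 had calls in both directions and 103 had none. Among the first stood Cpm, a membrane carboxypeptidase, with all 19 peaks higher and a median of 3.25, Isx, an intestinal homeobox factor, with 12 and 3.85, Ocln, the tight junction protein occludin, with 10, and St14, the epithelial protease matriptase, with 10. Among the second stood Pde1a, a phosphodiesterase, with 25 and a median of -2.51, Thbs2, a matricellular thrombospondin, with 16, Trps1, a GATA-type repressor, with 16, and Ednra, an endothelin receptor, with 13. These genes were picked for their calls and carry no test.

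Medians over windows of 5 Mb lay between -1.07 and 0.42 in the central 90% of 525 windows with at least 20 peaks, and the window with the lowest median, -1.91, was 30 to 35 Mb on chromosome 15, where 58.8% of 211 peaks were lower and 14.7% higher. With each window centered 79279 peaks were called, and 88.2% of the original calls were kept. The 25 peaks that were called in opposite directions with Smad4 off and restored comprised 11 that were higher in liver with Smad4 off and lower with it restored and 14 of the opposite order. Of these 25, limma called 0 for the interaction and DESeq2 called 3.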
